A study of Homo sapiens with 6 samples.

Results

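Ribosomal protein genes code for the proteins of the cytosolic ribosome. Here they are the protein-coding genes of the RefSeq GRCh38.p14 gene table named RPL or RPS with a number and an optional A, X or L, together with RPLP0, RPLP1, RPLP2 and RPSA. Ribosomal S6 kinases and genes on chromosome Y were left out. The rule gave 81 of the 20033 protein-coding genes in the table, 49 of the large subunit and 32 of the small subunit, and used no measured value. Chromatin accessibility at these genes was read from ATAC-seq peak lists of ARP1, a human multiple myeloma line. ATAC-seq uses the Tn5 transposase to cut and tag open DNA, and multiple myeloma is a cancer of plasma cells. The 3 knockout libraries came from ARP1 cells with KDM6A knocked out, and the 3 wild-type libraries from ARP1 cells with intact KDM6A. KDM6A is a demethylase of lysine 27 on histone H3, and the series asks how it regulates DNA accessibility. The labels name no clone, culture, edited site or knockout method, so the p-values below measure only the spread between these 6 libraries, which may be technical.

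A ribosome is built from a large and a small subunit, each made of ribosomal RNA and a fixed set of proteins needed in equal amounts. The genes for these proteins are transcribed in every growing cell, are short, and often carry small nucleolar RNAs in their introns. Their transcripts typically begin with a C followed by a run of pyrimidines, the terminal oligopyrimidine (TOP) motif, through which mTORC1 and LARP1 set their translation. Plasma cells make large amounts of secreted protein and depend on this machinery.

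The lists held 33055, 37314 and 36055 peaks in the knockout libraries and 54443, 54470 and 56048 in the wild-type libraries, with no overlap between the genotypes. Each peak carries a fold, its height over background as the authors' peak caller gave it. The background pileup behind the deposited fold values, a measure of read depth, was 2.31 ± 0.26 in knockout libraries and 3.52 ± 0.36 in wild-type libraries (SD, n = 3 each). The weakest listed peak had a fold of 3.23 ± 0.12 in knockout lists and 2.81 ± 0.10 in wild-type lists (SD, n = 3 each). Peaks lay at an end of 57.9% of coding genes in knockout libraries and 61.2% in wild-type libraries, a difference of -3.29 percentage points with an exact two-sided permutation p of 0.1, the smallest that 20 labellings allow. A peak lay at an end of KDM6A in all 6 lists, which does not check the knockout because the edited site is not given. Of 10 plasma cell markers 6 had a gene-end peak in every list (54.7% of all coding genes did). JCHAIN had one in the 3 wild-type lists only (1.03% of all coding genes did). FCRL5 and PRDM1 had a peak in 1 knockout list and 3 wild-type lists, and SLAMF7 in 2 wild-type lists and no knockout list. Of 8 markers of other cells CD3E and COL1A1 had one in every list and the other 6 in none.

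The promoters of these genes shared sequence features that the rule did not use. The RefSeq table of GRCh38.p14 promoters matched 64 of the 81 genes by symbol, and each window of 300 bases was read at the outermost listed start. The sequences shown cover 100 bases before to 20 bases from the start on. They belong to the gene with the strongest peaks (RPS3A), the gene with the weakest (RPL29), genes whose peak rank differed between genotypes (RPL26, RPL3, RPL38, RPSA, RPS13), RPS19, and the gene without a peak (RPL10L). Capitals mark the longest run of C and T within 20 bases either side of the start, and all sequences read 5′ to 3′ on the gene's strand.
RPS3A: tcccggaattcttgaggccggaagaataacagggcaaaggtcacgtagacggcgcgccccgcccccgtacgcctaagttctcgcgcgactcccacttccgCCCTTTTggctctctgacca
RPL29: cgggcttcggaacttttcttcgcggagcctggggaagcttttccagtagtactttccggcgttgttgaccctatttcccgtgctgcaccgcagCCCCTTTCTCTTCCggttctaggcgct
RPL26: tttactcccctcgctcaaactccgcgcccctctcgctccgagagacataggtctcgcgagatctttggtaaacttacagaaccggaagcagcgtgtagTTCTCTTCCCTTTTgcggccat
RPL3: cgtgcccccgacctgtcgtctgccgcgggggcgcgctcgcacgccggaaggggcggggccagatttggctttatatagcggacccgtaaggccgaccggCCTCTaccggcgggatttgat
RPL38: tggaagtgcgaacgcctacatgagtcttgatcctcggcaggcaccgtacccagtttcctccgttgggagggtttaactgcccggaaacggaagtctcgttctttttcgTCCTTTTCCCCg
RPSA: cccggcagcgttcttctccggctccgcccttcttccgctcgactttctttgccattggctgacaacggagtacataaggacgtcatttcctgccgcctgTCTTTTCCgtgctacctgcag
RPS13: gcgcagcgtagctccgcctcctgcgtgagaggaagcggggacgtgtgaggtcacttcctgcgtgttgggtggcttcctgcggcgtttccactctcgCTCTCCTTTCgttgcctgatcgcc
RPS19: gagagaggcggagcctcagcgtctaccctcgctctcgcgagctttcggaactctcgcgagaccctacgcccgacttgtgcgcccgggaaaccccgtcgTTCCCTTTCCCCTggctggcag
RPL10L: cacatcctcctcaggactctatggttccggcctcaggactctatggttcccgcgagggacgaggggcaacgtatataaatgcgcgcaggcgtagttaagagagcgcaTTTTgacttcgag
In GRCh38.p14 these are chr4:151099528-151099647 (plus strand), chr3:51995876-51995995 (minus), chr17:8383174-8383293 (minus), chr22:39319604-39319723 (minus), chr17:74203578-74203697 (plus), chr3:39406620-39406739 (plus), chr11:17077648-17077767 (minus), chr19:41860155-41860274 (plus) and chr14:46651762-46651881 (minus).

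The run of C and T at the start was the most common of these features. A run of at least 8 was present at 53 of the 64 ribosomal protein genes, or 82.8%, against 16.6% of the 15841 coding genes in the table and 15.9% of the 9098 with a gene-end peak in every list. The run was 14 bases long in RPL26 and in RPL29, 8 in RPSA, 5 in RPL3 and 4 in RPL10L. The median longest run was 11 bases in ribosomal protein genes and 5 in all coding genes. The letters CCGGAA, the core recognised by ETS factors, stood on either strand of the window in 54.7% of ribosomal protein genes, 22.7% of all coding genes and 31.7% of those with peaks. AAGATGGC, a YY1 motif, stood in 9.38%, 3.86% and 5.85% of the same sets. A longer palindrome centred on CGCG, known from promoters of housekeeping genes, stood in 4 ribosomal protein genes (6.25%), against 0.669% and 1.09%. It can be read in the RPL26 and RPS19 sequences above.

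Other common promoter letters differed less from all coding genes. GGGCGG, the GC box bound by SP1, stood in 56.3% of them, against 58.3% of all coding genes and 72.4% of those with peaks. CCAAT, bound by NF-Y, stood in 35.9%, 36.4% and 37.7%, and TATAAA, the element bound by TBP, in 9.38%, 9.75% and 5.35%. The median GC content of the windows was 59.3% in ribosomal protein genes, 62.7% in all coding genes and 65.7% in those with peaks. None of the searched motifs contains another, and a match is a description of the letters only. Ribosomal protein genes with and without the run had median percentiles of 80.4 and 78.0 in knockout lists and of 83.9 and 83.2 in wild-type lists (53 and 10 genes), where the percentile is the peak's place by -log10 p within its own list.

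Nearly every ribosomal protein gene had an accessible end in every library. A peak lay within 1 kb of a gene end in all 6 lists at 80 of the 81 genes, against 54.7% of all coding genes. No ribosomal protein gene had peaks in the 3 knockout lists and no wild-type list (0.025% of coding genes did), or in the 3 wild-type lists and no knockout list (1.03% did). The exception was RPL10L (chr14:46651010-46651781), a retrogene copy of RPL10 known from testis, which had a peak at neither end in any of the 6 lists. The tissue-restricted paralogues RPL3L, known from heart and skeletal muscle, and RPL39L, known from testis, did have peaks in every list. The RPL3L peak lay only at its lower-coordinate end, where it also held an end of MSRB1. The upper-coordinate end of RPL3L had no peak in any list. The p53-responsive paralogue RPS27L also had one in every list.

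The nearest relatives outside the naming rule gave a mixed picture. RPL22L1, RPL36AL and RPL7L1, 3 paralogues, and FAU, whose product is cut to release the small subunit protein RPS30, had a peak at an end in each of the 6 lists. The paralogue RPL26L1 had none. Other housekeeping lists were called almost as often, at 72 of 77 mitochondrial ribosomal protein genes, 30 of 34 proteasome subunit genes, 20 of 21 genes of translation factors and other TOP transcripts, and 21 of 22 ribosome assembly factor genes. These lists had no gene called in every library of 1 genotype and in none of the other.

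The peaks sat close to the start. Over the 63 genes with a peak and a listed start, the summit lay a median of 97 bp from the nearest listed start, and 79.4% of the genes had it within 200 bp. Over 9098 coding genes the median was 127 bp and the share 67.3%. At 20 of the 80 genes the core of the peak shared by all lists also held an end of another coding gene, so the peak cannot be given to the ribosomal protein gene alone. RAB13 at RPS27, CLHC1 at RPS27A, MSRB1 at RPL3L and RDH10 at RPL7 are examples. At 78 of the 80 genes the strongest peak lay in 1 place in every list, and RPL23A and RPL38 were the others.

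Peak strength varied widely among the genes and kept its order between libraries of 1 genotype. The mean within-list percentile ran from 31.8 to 99.1 in knockout lists, with an SD between genes of 16.7, and from 43.5 to 99.4 in wild-type lists, with an SD of 11.97. The median SD of a gene between the 3 libraries was 4.09 in knockout lists and 2.58 in wild-type lists. Spearman's rho of the 80 percentiles was 0.90, 0.91 and 0.90 for the pairs of knockout libraries and 0.92, 0.91 and 0.90 for the pairs of wild-type libraries. Between a knockout and a wild-type library it ran from 0.71 to 0.83. The 80 points of each rho are genes of the same libraries, so it is a description. Differences between genotypes were tested with limma on the normal score of each peak's rank by -log10 p among the 10950 coding genes with a gene-end peak in every list. They are given as knockout minus wild type, with p-values adjusted over all of these genes and a threshold of 0.05, and are called rank score differences.

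**Figure D1:**
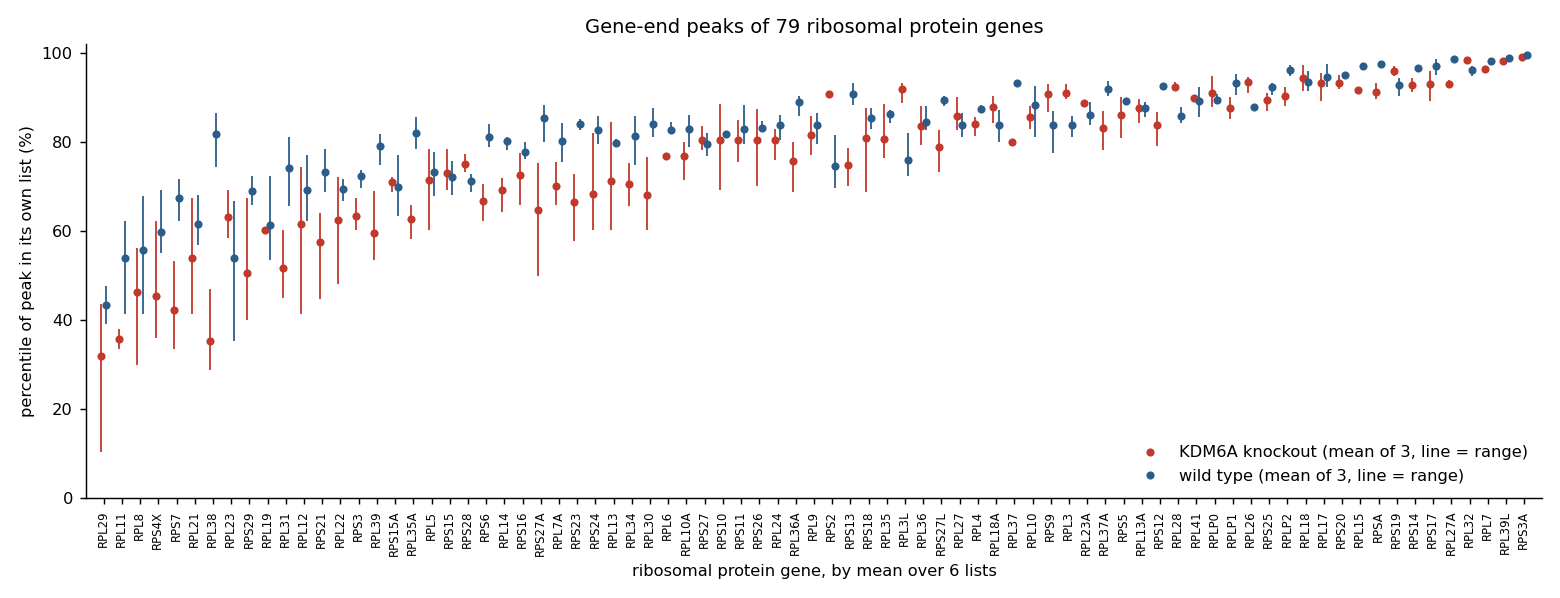
Within-list percentile of the gene-end peak (vertical axis, percent, ranked by -log10 p) for 79 ribosomal protein genes with a peak in every list, ordered by their mean over 6 lists. Points are the means of 3 knockout and of 3 wild-type libraries and lines their ranges; the order runs from RPL29, with a mean of 37.6, to RPS3A, with a mean of 99.2.

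The strongest peaks belonged to RPS3A, RPL39L, RPL7, RPL32 and RPL27A. RPS3A, a small subunit protein, had a fold over background of 31.6, 40.6 and 33.95 in knockout libraries and 40.1, 52.5 and 43.2 in wild-type libraries. RPL39L had a fold of 26.2, 31.8 and 30.9 in knockout libraries and 40.4, 37.4 and 37.9 in wild-type libraries. RPL7, a large subunit protein whose peak also held an end of RDH10, had a fold of 24.1, 25.6 and 22.7 in knockout libraries and 31.4, 36.2 and 31.2 in wild-type libraries. The genotypes overlapped in fold for RPS3A and not for RPL39L or RPL7, with knockout lower (as at 36.8% of all genes tested). Neither RPL39L nor RPL7 passed the rank test (adjusted p 0.832 and 0.451, limma). RPL32 and RPL27A are described with the genes that differed in rank.

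Weak peaks were found at RPL29, RPL11, RPL8 and RPS4X, all among the lowest mean percentiles. RPL29, a small protein of the large subunit, had a fold of 4.21, 6.56 and 5.61 in knockout libraries and 5.13, 6.56 and 5.66 in wild-type libraries. RPL8, which lies near the peptidyl transferase centre, had a fold of 5.42, 7.54 and 7.02 in knockout libraries and 7.05, 9.96 and 5.45 in wild-type libraries. RPS4X, the X-linked gene of a small subunit protein, had a fold of 8.73, 5.90 and 5.33 in knockout libraries and 8.97, 7.53 and 6.92 in wild-type libraries. The genotypes overlapped in fold at each of these 4 genes, and none of the 4 passed the rank test. The summit pileup, the number of reads or fragments stacked at the summit, was lowest over the 80 genes at 13 in the first knockout library, against 21 in the lowest wild-type library. The median gene had a pileup of 39.5, 42.5 and 40.5 in knockout libraries and of 62.5, 68.5 and 63 in wild-type libraries, which sets the counting precision of each value.

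The 5S RNA particle, which can bind MDM2 and stabilise p53, is formed with RPL5 and RPL11. RPL5 had a fold of 8.43, 11.8 and 11.2 in knockout libraries and 10.3, 13.1 and 9.01 in wild-type libraries. RPL11 had a fold of 6.02, 5.90 and 5.05 in knockout libraries and 7.05, 8.75 and 5.45 in wild-type libraries. Both overlapped between genotypes. RPLP0, the base of the stalk that recruits translation factors, had a fold of 21.4, 18.7 and 14.9 in knockout libraries and 16.2, 21.1 and 16.3 in wild-type libraries, again overlapping. RPL10, a late-joining protein of the large subunit that is mutated in some T cell leukaemias, had a fold of 15.95, 14.4 and 13.8 in knockout libraries and 18.2, 23.1 and 12.8 in wild-type libraries. Its groups overlapped, and its rank score differed by 0.01 ± 0.23 (SE).

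Among small subunit genes, RPS6, the phosphorylation target of the S6 kinases, had a fold of 9.63, 10.5 and 7.86 in knockout libraries and 11.5, 16.04 and 12.6 in wild-type libraries. RPS14, whose loss drives the anaemia of the 5q- syndrome, had a fold of 18.96, 19.3 and 19.9 in knockout libraries and 26.3, 30.4 and 25.1 in wild-type libraries. Neither gene overlapped between genotypes in fold, with knockout lower, and neither passed the rank test (adjusted p 0.21 and 0.28, limma). RPS19, often mutated in Diamond-Blackfan anaemia, had a fold of 25.3, 23.3 and 21.9 in knockout libraries and 20.7, 25.8 and 17.6 in wild-type libraries. Its percentile was 97.1, 94.8 and 95.9 in knockout lists and 93.9, 94.3 and 90.4 in wild-type lists. The genotypes overlapped in fold and not in percentile, and its rank score difference of 0.58 ± 0.19 (SE) missed the threshold (adjusted p 0.0568, limma).

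RPS27A, a fusion of ubiquitin with a small subunit protein, had a fold of 9.93, 7.21 and 10.4 in knockout libraries and 15.6, 18.96 and 12.4 in wild-type libraries, without overlap. Its rank score difference of -0.67 ± 0.25 (SE) missed the threshold (adjusted p 0.0876, limma). RPS27 had a fold of 12.04, 13.1 and 12.9 in knockout libraries and 10.9, 15.1 and 12.4 in wild-type libraries, and its paralogue RPS27L had a fold of 12.9, 11.1 and 12.6 in knockout libraries and 15.6, 20.2 and 17.6 in wild-type libraries. The genotypes overlapped for RPS27 and not for RPS27L, and neither passed the rank test (adjusted p 0.183 and 0.212, limma).

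Median percentiles by subunit and by small nucleolar RNA content differed by less than the SD between genes (16.7 in knockout lists and 11.97 in wild-type lists). The SDs that follow are between libraries, and differences between groups of genes were not tested. The median percentile of large subunit genes was 81.6 ± 1.87 in knockout lists and 84.8 ± 0.58 in wild-type lists, and that of small subunit genes 78.0 ± 1.06 in knockout lists and 82.7 ± 2.18 in wild-type lists (SD, n = 3 each). The 29 genes that hold small nucleolar RNA records had a median percentile of 84.8 ± 0.71 in knockout lists and 86.1 ± 2.09 in wild-type lists. The 51 others had 78.0 ± 1.40 in knockout lists and 83.2 ± 1.14 in wild-type lists (SD, n = 3 each). As a rank in percent among the 10950 genes, the 29 stood at 58.6 ± 1.95 and the 51 at 44.9 ± 2.43 in knockout libraries. In wild-type libraries they stood at 51.9 ± 4.06 and 44.1 ± 0.39. Large and small subunit genes stood at 52.1 ± 2.71 and 44.9 ± 1.75 in knockout libraries, and at 48.2 ± 0.95 and 43.2 ± 3.15 in wild-type libraries (SD, n = 3 each). The median length of the 81 genes was 5015 bp, against 24130 bp for all coding genes.

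As a set, ribosomal protein genes stood near the middle of all coding genes with a peak, in both genotypes. Their median percentile was 80.3 ± 1.99 in knockout lists and 84.0 ± 1.33 in wild-type lists, beside 80.5 ± 1.19 and 85.4 ± 0.84 for all coding genes with a peak in every list (SD, n = 3 each). Their median fold was 12.2, 14.3 and 11.6 in knockout libraries and 13.6, 16.9 and 13.4 in wild-type libraries, so the genotypes overlapped. Gene by gene, every knockout library had a lower fold than every wild-type library at 32 of the 80 (36.8% of all genes tested) and a higher one at 5 (2.93% of all genes tested). The within-list percentile was lower in every knockout library at 30 (38.3% of all genes tested) and higher at 8 (6.91% of all genes tested). The mean of the knockout medians was 86.8% of the wild-type mean for ribosomal protein genes and 83.3% for all coding genes. The same ratio was 74.8% for mitochondrial ribosomal protein genes, 83.9% for proteasome genes, 89.7% for translation factors and other TOP genes and 88.9% for assembly factors. Cut to an equal list length of 33055 peaks, the median percentile of ribosomal protein genes was 80.4 ± 0.32 in knockout lists and 74.5 ± 1.52 in wild-type lists (SD, n = 3 each), so the order of the genotypes in this measure depended on list length.

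To keep list length out of the comparison, the 10950 coding genes with a gene-end peak in every list were ranked against each other in each library. On this scale, where the middle gene stands at 50, the median of ribosomal protein genes was 49.4 ± 2.86 in knockout libraries and 46.4 ± 1.29 in wild-type libraries (SD, n = 3 each). The medians were 49.4, 52.3 and 46.5 in knockout libraries and 47.2, 47.1 and 44.9 in wild-type libraries, which overlap. Mitochondrial ribosomal protein genes stood at 38.6 ± 1.98 in knockout libraries and 46.5 ± 3.85 in wild-type libraries. Genes of translation factors and other TOP transcripts stood at 61.0 ± 0.78 in knockout libraries and 56.1 ± 5.02 in wild-type libraries. Proteasome genes stood at 44.2 ± 2.66 in knockout libraries and 43.4 ± 3.09 in wild-type libraries, and assembly factor genes at 52.9 ± 8.21 in knockout libraries and 47.9 ± 1.57 in wild-type libraries (SD, n = 3 each).

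**Figure D2:**
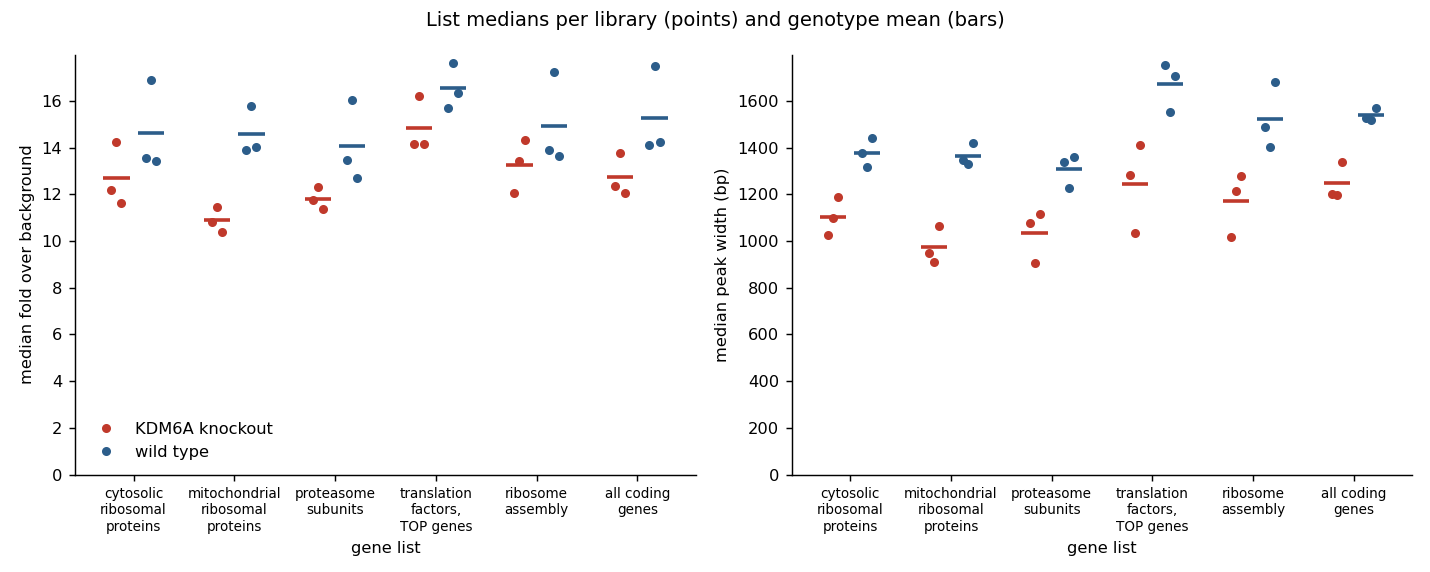
Median fold over background (left) and median peak width in bp (right) of ribosomal protein genes, 4 comparison lists and all coding genes, over genes with a peak in every list, with knockout libraries left of wild-type libraries. Points are libraries and bars their means; the ribosomal protein medians averaged a fold of 12.7 and a width of 1104.5 bp in knockout and 14.6 and 1377 bp in wild-type libraries.

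Individual ribosomal protein genes differed in both directions. In the limma test of the rank score, 12 of the 80 genes passed an adjusted p of 0.05, which is 15% and close to the 15.9% of all genes tested. Of these 7 were higher in knockout (8.67% of all genes tested were) and 5 lower (7.21% of all genes tested were). The median score difference was 0.00 for ribosomal protein genes and -0.02 for all genes tested, and 41 of the 80 were positive. Every knockout library ranked above every wild-type library for 14 genes (18.5% of all genes) and below for 19 (19% of all genes). The number of ribosomal protein genes called was 7 without knockout replicate 1, 8 without knockout replicate 2, 12 without knockout replicate 3, 3 without wild-type replicate 1, 4 without wild-type replicate 2 and 6 without wild-type replicate 3. The calls of RPL3L, RPS2 and RPL38 held in each of these 6 fits.

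The largest gains were at neighbouring genes of chromosome 16. RPS2, a protein at the messenger RNA entry channel of the small subunit (chr16:1962058-1964826), had a fold of 17.2, 19.01 and 17.1 in knockout libraries and 9.82, 14.8 and 9.43 in wild-type libraries. Its rank was 73.6, 72.2 and 74.6 in knockout libraries and 25.5, 37.5 and 21.1 in wild-type libraries. The groups did not overlap on either scale, and the score difference was 1.22 ± 0.18 (SE, adjusted p 0.0051, limma). RPL3L (chr16:1943974-1954689) had a fold of 19.6, 21.3 and 15.4 in knockout libraries and 10.04, 15.1 and 10.1 in wild-type libraries. Its rank was 81.7, 79.4 and 67.7 in knockout libraries and 26.9, 38.6 and 24.8 in wild-type libraries, again without overlap, and its score differed by 1.26 ± 0.19 (SE, adjusted p 0.00519, limma). The RPL3L peak lay outside the lower-coordinate end of the gene and held an end of MSRB1. At the upper-coordinate end of RPL3L no list had a peak. RPL3L had no listed start, so which gene's promoter the peak covers was not tested, and the gain cannot be given to RPL3L alone.

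RPL32, RPL3, RPL28, RPS9 and RPL26 were the others that were higher in knockout. RPL32 (chr3:12834485-12841582), already among the strongest peaks, had a fold of 31.6, 31.1 and 28.3 in knockout libraries and 26.7, 27.0 and 24.5 in wild-type libraries, a score difference of 0.76 ± 0.18 (SE, adjusted p 0.0204, limma). RPL3 (chr22:39312882-39319623), which reaches into the peptidyl transferase centre, had a fold of 16.9, 18.4 and 18.5 in knockout libraries and 12.4, 17.3 and 14.04 in wild-type libraries, a score difference of 0.75 ± 0.18 (SE, adjusted p 0.0193, limma). The groups of RPL32 did not overlap in fold, and those of RPL3 did while their ranks did not. RPL28, a large subunit protein without a bacterial counterpart, ranked at 76.9, 75.4 and 80.4 in knockout libraries and 47.8, 46.5 and 58.0 in wild-type libraries (adjusted p 0.0194, limma). RPS9, which like RPS2 lies at the entry channel, ranked at 80.8, 76.5 and 62.4 in knockout libraries and 54.6, 50.9 and 33.6 in wild-type libraries (adjusted p 0.0376, limma). RPL26, a target of UFMylation at the endoplasmic reticulum, ranked at 85.2, 82.7 and 73.6 in knockout libraries and 57.7, 51.9 and 58.9 in wild-type libraries (adjusted p 0.0238, limma). Score differences were 0.74 ± 0.18 for RPL28, 0.73 ± 0.21 for RPS9 and 0.72 ± 0.18 for RPL26 (SE). The calls of RPL3 and RPL28 were lost without wild-type replicate 1 or 2 (adjusted p 0.054 to 0.082 for RPL3 and 0.0685 to 0.0789 for RPL28, limma). The RPL32 call was lost without knockout replicate 1 or any wild-type replicate (adjusted p 0.0524 to 0.0771, limma). Those of RPS9 and RPL26 held only without knockout replicate 3, with adjusted p of 0.0726 to 0.129 and 0.0543 to 0.0814 in the other fits (limma).

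The largest loss was at RPL38 (chr17:74203678-74210655), a large subunit protein known in mice for selective translation of Hox messages. Its fold was 5.42, 6.88 and 4.77 in knockout libraries and 14.7, 11.9 and 14.04 in wild-type libraries, without overlap. The score difference was -1.43 ± 0.24 (SE, adjusted p 0.00629, limma). In wild-type replicates 1 and 3 the strongest peak lay past the far end of the gene, with its summit 9656 and 9613 bp from the start. Within 1 kb of that end no knockout list and not the remaining wild-type list had a peak. Those summits lie outside this window, and whether the other lists had a peak there was not tested. At the gene's start alone the fold was 5.69 ± 1.08 in knockout libraries and 11.7 ± 0.67 in wild-type libraries (SD, n = 3 each). Ranked by peaks at listed starts only, the score difference was -1.15 ± 0.20 (SE, adjusted p 0.00714, limma).

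RPL27A, RPS13, RPL37 and RPSA were the others that were lower in knockout. RPL27A (chr11:8682792-8689872), a large subunit protein, had its strongest peak at the far end of the gene, with a fold of 19.3, 21.96 and 18.0 in knockout libraries and 33.95, 39.6 and 35.6 in wild-type libraries. Its score differed by -0.82 ± 0.17 (SE, adjusted p 0.0127, limma). The peak at its listed start had a fold of 12.2 ± 0.66 in knockout libraries and 19.7 ± 1.70 in wild-type libraries (SD, n = 3 each), and with listed starts only the difference was -0.57 ± 0.19 (SE) and missed the threshold (adjusted p 0.0537, limma). With windows of 500 bp it was -1.75 ± 0.18 (SE, adjusted p 0.00113, limma). In at least 1 list the far-end peak ended more than 500 bp inside the gene end. This window could thus compare different peaks between lists, and the cause of the shift was not tested. RPSA (chr3:39406720-39412542), also known as the laminin receptor, had a fold of 16.9, 21.3 and 16.6 in knockout libraries and 27.5, 35.7 and 28.1 in wild-type libraries. RPL37 (chr5:40825262-40835222) had a fold of 12.6, 13.1 and 11.8 in knockout libraries and 20.7, 24.1 and 19.7 in wild-type libraries. Neither overlapped between genotypes, and scores differed by -0.62 ± 0.17 for RPSA (SE, adjusted p 0.032, limma) and -0.69 ± 0.17 for RPL37 (SE, adjusted p 0.0214, limma). RPS13 (chr11:17074388-17077667), a small subunit protein, had a fold of 11.4, 12.8 and 9.26 in knockout libraries and 15.8, 24.1 and 18.0 in wild-type libraries, without overlap, with a score difference of -0.69 ± 0.19 (SE, adjusted p 0.0321, limma). The RPS13 call was lost with the replicate block (adjusted p 0.0586) and without any 1 of the 6 libraries (0.0525 to 0.111, limma). The RPSA call was lost with the block (adjusted p 0.0633) and without knockout replicate 1 or any wild-type replicate (0.0794 to 0.0944, limma). The RPL37 call was lost without knockout replicate 2 or any wild-type replicate (adjusted p 0.0536 to 0.0897, limma), and the RPL27A call without wild-type replicate 1 (0.0561).

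**Figure D3:**
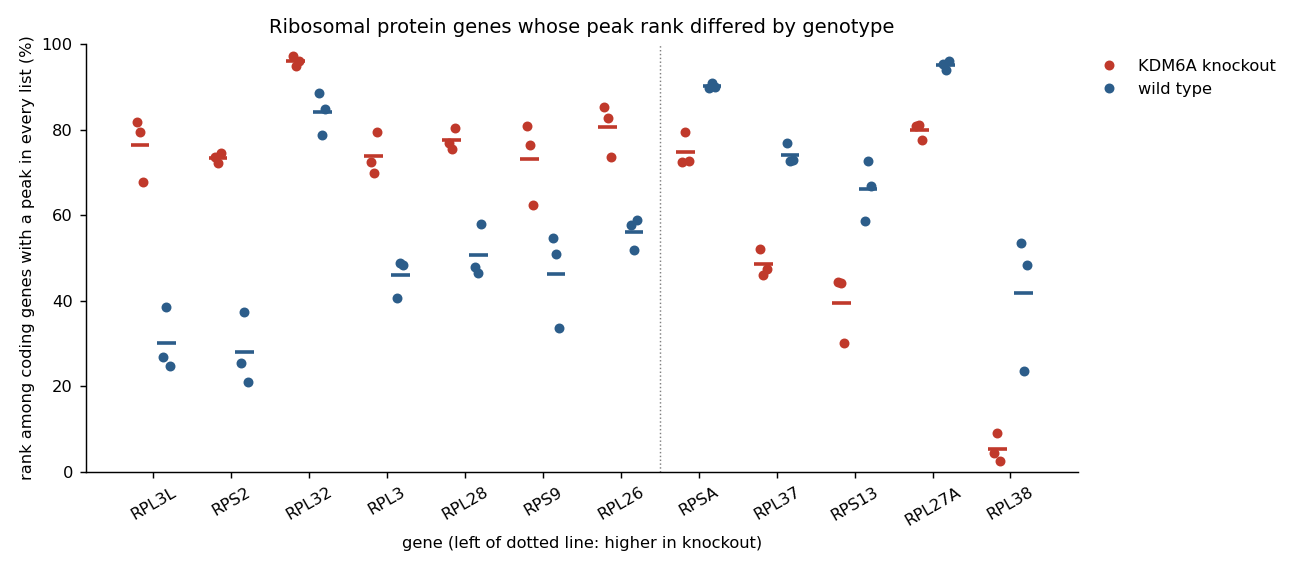
Rank of the gene-end peak among 10950 coding genes (vertical axis, percent) in each knockout and wild-type library for the 12 ribosomal protein genes with an adjusted p under 0.05, with bars at the means. The 7 genes left of the dotted line were higher in knockout and the 5 to its right lower, and RPL38 stood at 4.54, 9.15 and 2.64 in knockout libraries.

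Peaks of ribosomal protein genes were narrower in knockout lists, as peaks of other genes were. The median width was 1026.5, 1097.5 and 1189.5 bp in knockout libraries and 1376, 1315.5 and 1440.5 bp in wild-type libraries, without overlap. The knockout mean was 80.2% of the wild-type mean for ribosomal protein genes and 81.0% for all coding genes. Every knockout library was narrower than every wild-type library at 42 of the 80 genes (47.9% of all genes tested) and wider at RPS2 and RPS9 (0.731% of all genes tested). Centred on the library median, the width of 1 ribosomal protein gene passed limma's adjusted threshold, against 0.447% of all genes tested (0.0639% wider and 0.384% narrower in knockout). That gene was RPS2, wider in knockout, with a width of 1477, 1582 and 1807 bp in knockout libraries and 1185, 1249 and 1260 bp in wild-type libraries. Its centred log2 width differed by 0.70 ± 0.10 (SE, adjusted p 0.0487, limma), and the call was lost when any of the 6 libraries was left out. Without centring, 14 of the 80 genes were narrower in knockout (9.02% of all genes tested) and none wider. Background pileup and peak number moved with genotype in the same direction as width, and their part in it was not tested.

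The direction of a ribosomal protein gene went with that of the genes around it. Of the other genes tested within 250 kb, leaving out those with the same peak, 20 of 21 around RPS2 and 19 of 20 around RPL3L were also called higher in knockout. RPS2 and RPL3L lie within 250 kb of each other, so each counts the other and their neighbours overlap. The counts were 6 of 20 around RPL28, 5 of 9 around RPS9, 3 of 9 around RPL26, 2 of 4 around RPL3 and 0 of 3 around RPL32. Around the genes that were lower in knockout, 2 of 3 neighbours of RPS13, 1 of 1 of RPSA, 1 of 4 of RPL27A and 0 of 3 of RPL37 were also called lower, and RPL38 had no tested neighbour. Of the 12 genes 9 had a neighbour called in the same direction, and none had one called in the other direction. Of all 1738 called genes, 55.6% had a neighbour called in the same direction and 2.13% one in the other direction. The score difference of the 78 genes with a neighbour followed the median of their neighbours with Pearson's r of 0.77 and Spearman's rho of 0.77, and 63 of the 78 (80.8%) had the sign of that median. Over all 10324 tested genes with a neighbour r was 0.59 and rho 0.60, and 71.7% had that sign, so the pattern was not limited to ribosomal protein genes. These points are genes of the same 6 libraries and several share neighbours, so the values are a description.

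**Figure D4:**
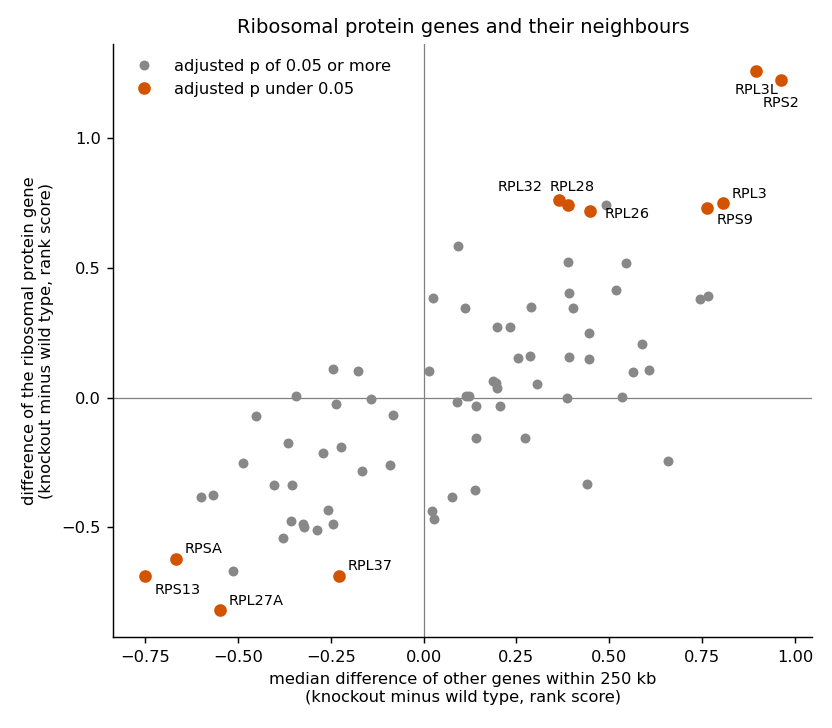
Knockout minus wild-type difference in rank score of 78 ribosomal protein genes (vertical axis) against the median difference of other tested coding genes within 250 kb that have another peak (horizontal axis). Orange points passed the adjusted threshold; RPS2 and RPL3L stand at the top right, with neighbour medians of 0.96 and 0.90, and RPS13 at the lower left, with -0.75.

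Chromosome and gene density moved with these differences. All 12 ribosomal protein genes on chromosome 19 had a positive difference, with a median of 0.37, on a chromosome where the median of all tested genes was 0.46 and 33.5% were called higher in knockout. On chromosome 16, where RPS2 and RPL3L lie, 30.5% of tested genes were called higher, and on chromosome 22, where RPL3 lies, 35.6%. On chromosome 11, where RPL27A and RPS13 lie, 19.97% were called lower and none of the 5 ribosomal protein genes had a positive difference. RPL38 and RPL32 went against their chromosomes, with differences of -1.43 and 0.76 beside medians of 0.24 on chromosome 17 and -0.12 on chromosome 3. The number of coding genes within 250 kb had a median of 23 (range 4 to 33) for the 7 genes that were higher in knockout. For the 5 that were lower it was 6 (range 3 to 6), and for all 80 it was 8. RPL32, higher in knockout, had 4, within the range of the lower genes, and RPS2 and RPL3L share their surroundings. Over the 80 genes this number went with the score difference with r of 0.54 and rho of 0.53, and over all 10950 genes with r of 0.35 and rho of 0.39. The GC content of the promoter went with it with r of 0.22 over 9099 genes and 0.00 over 63 ribosomal protein genes. The part of chromosome, gene density and base composition in these calls was not tested.

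**Figure D5:**
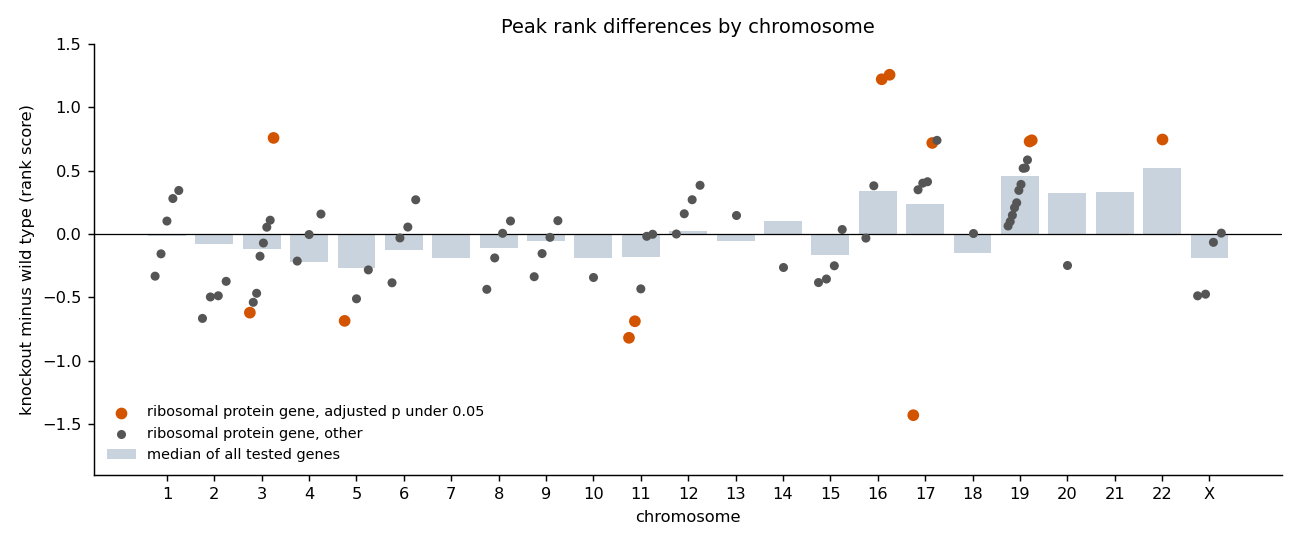
Knockout minus wild-type difference in rank score by chromosome. Bars are the median of all tested coding genes and points the 80 ribosomal protein genes, with orange points past the adjusted threshold; all 12 points on chromosome 19 lie above 0 and all 5 on chromosome 11 below.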

How the data were processed

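Each sample had 1 narrow peak list, called on that library alone, and titles gave the genotype. Per the labels' protocol, libraries were size selected and sequenced as paired 150 bp reads with a goal of about 60 M reads per sample. Per the submitters' processing notes, Trimmomatic, FastQC, MultiQC, Bowtie2 and MACS2 2.1.2 were used with GRCh38. The sources used here do not give their roles or settings, nor any Tn5 shift or removal of duplicates. The deposited lists give each peak a fold (a ratio over background), a score, and the -log10 of its p-value and of its q-value, all from the authors' peak caller.

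The mitochondrial peak, 1 per list, was left out. A gene's peak was the one with the highest -log10 p overlapping 1 kb either side of a gene end (RefSeq GRCh38.p14). Below a fold of 100, all fold values were whole multiples of 1 step per library (tolerance 0.01 of a step), which gave the background pileup and, from it, the summit pileup.

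Strength was tested with limma 3.58.1 (R 4.3.3) on the inverse-normal score of the rank by -log10 p among 10950 genes with a peak in every list, and width on log2 width centred on the library median. Differences are knockout minus wild type, with Benjamini-Hochberg adjustment over all genes tested and a threshold of 0.05. Tables were made with pandas 2.3.3 and scipy 1.17.1, and the code was tested on simulated data. Genes named with values are a fixed group of 16, those without a peak, those past a threshold, and the 5 with the strongest and the 5 with the weakest peaks. Other members are counted only, and items withheld from this text are not reported here. Members and lists were chosen with earlier results of these data known. Replicate numbers were not used to pair samples in the main fits, and no source used here says what they share. Strength deviations correlated at -0.05, 0.01 and -0.20 for equal numbers and from -0.12 to 0.16 for unequal numbers. These values cannot show whether the samples were paired. Alternatives were a replicate block, a -log10 q of at least 5, equal list length, windows of 500 bp and 2 kb, log2 fold in place of ranks, widths without centring, each library left out and, added after seeing the data, peaks at listed starts only.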

Additional observations from a re-analysis of the deposited data

How the results depend on the processing

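The count of 80 ribosomal protein genes with a peak in every list became 79 with a -log10 q of at least 5, 77 at equal list length, and 63 of 64 at listed starts only. With the replicate block, 1030 genes passed the strength test, with 7 ribosomal protein genes higher and 3 lower, and RPS13 (adjusted p 0.0586) and RPSA (0.0633, limma) missed the threshold. Listed starts only gave 5 higher and 3 lower. RPS2, RPL3L and RPL37 have no listed start and were not tested there, and RPL27A missed the threshold (adjusted p 0.0537, limma). Leaving out 1 library gave 348 to 2018 genes (348 without wild-type replicate 1), 2 to 7 ribosomal protein genes higher and 1 to 5 lower. Of 165 repeats of single-gene tests 46 missed the threshold and 0 changed direction. RPS13 missed it in all 6 fits without a library. The width test gave 0 genes with the block (lowest adjusted p 0.147, limma, and 1478 genes at an unadjusted p under 0.05), 999 without centring, 26 with a -log10 q of at least 5 and 4 to 100 with 1 library left out. RPS2 was not called in width with the block, without centring, with the stricter q or with windows of 2 kb, which left 0 ribosomal protein genes wider, as did each of the 6 fits without a library. Listed starts only, which hold no start of RPS2, also gave 0. Narrower genes were 14 without centring, 1 with windows of 500 bp and 1 with 2 kb. The median percentile was 77.0 in knockout and 81.1 in wild-type lists with the stricter q, 74.5 in wild-type lists at equal length and 76.9 in knockout lists at listed starts only. No cause was tested. The summit pileup of the weakest peak was 13, which limits its precision.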
